A study of Mus musculus with 4 samples.

Results

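Start sites of 6 genes that encode proteins bound to the thick filament of muscle, the myosin binding proteins Mybpc1, Mybpc2 and Mybph and the M-band proteins Myom1, Myom2 and Myom3, were examined in skeletal muscle of mice with and without AMPKα2. The genes were taken by symbol, with every start site that carried the symbol, and all 6 were present. They held 114 of the 42207 alternative start sites (ASSs) and were 6 of the 9838 genes in the table. The table came from WTSS-seq (whole transcriptome start site sequencing) of AMPKα2-/- C57BL/6 mice (KO) and their wild-type controls (WT) of about 8 weeks, with 2 mice and so 2 libraries per genotype. According to the study's methods the tissue was the gastrocnemius muscle and the mice profiled were male. The deletion was carried by the whole animal and not by muscle alone, and the labels gave no agent and no treatment. A WTSS-seq read begins where an RNA molecule, or a fragment of one, begins at its 5′ end, so an ASS inside a gene need not be a promoter.

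In the sarcomere, myosin thick filaments slide past actin thin filaments, and the thick filaments are held in register at their middle by the M-band. The myosin binding proteins C sit in stripes on either side of that middle, bind myosin and titin, and temper the formation of cross-bridges; Mybpc1 encodes the slow skeletal form, Mybpc2 the fast skeletal form, and Mybph a smaller relative. The myomesins Myom1, Myom2 and Myom3 bridge neighbouring myosin filaments in the M-band, with Myom2, also called M-protein, typical of fast fibres and Myom3 of fibres of intermediate and slow speed. These facts are background and were not measured here.

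The KO libraries were the deeper ones, and totals per library lay between 1300069 and 2900279 reads. A floor of 3 reads corresponded to 1.03 to 2.31 ppm. Reads of the 6 genes together made up 1274 and 1167 ppm in KO replicates 1 and 2 and 1005 and 1305 ppm in WT replicates 1 and 2. The intronic share of the exonic and intronic reads of nuclear genes was 30.6% and 24.5% in KO against 27.5% and 21.2% in WT. All 6 muscle fibre markers examined were present and 0 were called between genotypes, while 1 of 5 cardiac muscle markers, Myh6, was in the table, at 4.21 to 18.7 normalized counts per library. The summed normalized count of 7 fibroblast markers was 3029 and 2822 in KO against 3949 and 3708 in WT. That of the 5 adipocyte markers in the table was 5855 and 2940 in KO against 5821 and 3273 in WT. Fabp4 alone had 5792 and 2861 in KO against 5720 and 3197 in WT, and no other adipocyte marker exceeded 44.9 in any library. Summed normalized counts of the blood markers were 16.2 to 28.1, those of the Schwann cell markers 8.72 to 40.2 and those of the smooth muscle markers 39.1 to 128. The part of these markers in the values below was not tested.

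The start sites were placed against the annotated starts of the genes. Mybpc1 spans 87.0 kb on the minus strand of chromosome 10 (88518279 to 88605229), and it was the only one of the 5 genes with a RefSeq promoter entry for which an ASS lay within 100 bases of the annotated start. That ASS covered 18 bases (88605156 to 88605173) and ended 4 bases before the start given by RefSeq. The RefSeq promoter window of Mybpc1 (GRCm38.p6, minus strand, chr10:88605103-88605402) is shown because it holds this ASS, whose bases are in capitals.

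Mybpc1: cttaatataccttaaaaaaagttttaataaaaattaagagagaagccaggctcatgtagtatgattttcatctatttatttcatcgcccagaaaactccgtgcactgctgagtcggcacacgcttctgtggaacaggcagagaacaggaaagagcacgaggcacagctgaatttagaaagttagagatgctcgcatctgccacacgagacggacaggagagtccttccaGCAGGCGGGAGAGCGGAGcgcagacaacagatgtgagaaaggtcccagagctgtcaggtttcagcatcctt

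The ASS at the annotated start of Mybpc1 had 0 and 3 reads in the KO libraries against 0 and 11 in WT, so 3 of the 4 libraries were at or under the floor and a difference was not detectable at this depth. A broader ASS of 58 bases (88604977 to 88605034), 118 bases inside the gene, had 29 and 11 reads in the KO libraries against 2 and 6 in WT; it was singled out after its values were seen. Both KO libraries were higher than both WT libraries there, but the DESeq2 adjusted p-value was 1.00 (log2 fold change 1.56, SE 1.57). Within 1 kb of the outer 5′ end of the gene model lay 2.52% to 4.64% of the Mybpc1 reads of a library.

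No ASS of Mybpc2, Mybph, Myom1 or Myom3 was found within 100 bases of the RefSeq start. The bases from 100 before to 25 after the start are printed for Mybph (plus strand, chr1:134193348-134193472) and Myom3 (plus strand, chr4:135759615-135759739), because both genes had few reads and these 2 were the promoters with a TATA box or MEF2 match. Capitals mark the match.

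Mybph: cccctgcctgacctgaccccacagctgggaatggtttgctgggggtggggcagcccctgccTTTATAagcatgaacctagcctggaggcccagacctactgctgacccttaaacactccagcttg

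Myom3: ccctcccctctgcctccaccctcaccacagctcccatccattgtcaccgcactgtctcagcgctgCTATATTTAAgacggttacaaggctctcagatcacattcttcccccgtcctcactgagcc

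The Mybph match was to TATAAA on the opposite strand, 39 bases before the start, a motif held by 13.6% of the 32851 RefSeq promoter windows of 300 bases when both strands are searched. The Myom3 match was to the consensus of MEF2, a muscle transcription factor, 35 bases before the start, and 3.19% of windows held one. The E-box CANNTG, the motif of the myogenic basic helix-loop-helix factors, was found in all 5 windows (3 times in Mybpc1 and Myom1, 2 times in Mybpc2, 1 time each in Mybph and Myom3), but 72.3% of all windows held it. None of the matches overlapped an ASS, and a match describes the letters of the window alone.

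The summed level of each gene was then compared. Of the 4 genes that DESeq2 tested, 0 were called at an adjusted p-value under 0.1, against 2.67% of all 4688 genes tested (1.71% higher and 0.96% lower in KO), and 0 had an unadjusted p under 0.05. The quasi-likelihood test of edgeR tested 5 of the 6 genes and also called 0, with 0 at an unadjusted p under 0.05. In whole muscle, a lower share of fibres of a type and less RNA per fibre cannot be told apart. Mybph and Myom3 were below the mean count that DESeq2 tested.

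Mybpc1, the slow form, had 585 and 552 normalized counts in KO and 334 and 590 in WT. WT replicate 1 stood below the other 3 libraries, and the genotypes overlapped. The mean was 568 ± 22.8 in KO and 462 ± 181 in WT (SD, n = 2). This gave a log2 fold change of 0.30 (SE 0.46, 95% interval -0.60 to 1.20) with a DESeq2 adjusted p of 0.954.

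Mybpc2, the fast form, had 299 and 306 normalized counts in KO and 328 and 442 in WT. Both WT libraries were above both KO libraries, as in 19.4% of all genes tested, and the reverse order, found in 22.0% of all genes, was seen in none of the 4 tested here. The mean was 303 ± 4.63 in KO and 385 ± 80.6 in WT (SD, n = 2), and the log2 fold change of -0.35 (SE 0.45, 95% interval -1.23 to 0.53) did not exceed the error, with a DESeq2 adjusted p of 0.947. Mybpc2 lies on the minus strand of chromosome 7 (44501699 to 44524715).

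Mybph (chromosome 1, 134193418 to 134201237, plus strand) was barely detected. Its single ASS of 5 bases (134197394 to 134197398) had 0 and 2 reads in the KO libraries against 3 and 11 in WT, and only WT replicate 2, at 7.01 ppm, was above the floor. No adjusted p-value was given at this depth, and the unadjusted DESeq2 p of the sum was 0.114.

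Among the myomesins, Myom2 (chromosome 8, 15057653 to 15133420, plus strand) gave the most reads of the 6 genes, in counts that were not divided by RNA length. It had 1051 and 1165 normalized counts in KO and 920 and 1141 in WT. The libraries overlapped between genotypes, with a mean of 1108 ± 80.8 in KO and 1030 ± 156 in WT (SD, n = 2). The log2 fold change was 0.10 (SE 0.41, 95% interval -0.69 to 0.90) and the DESeq2 adjusted p 0.992.

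Myom1, the myomesin found in all fibre types (chromosome 17, 71003332 to 71126856, plus strand), had 304 and 310 normalized counts in KO and 237 and 347 in WT. Both KO libraries lay between the WT libraries. The mean was 307 ± 4.69 in KO and 292 ± 78.1 in WT (SD, n = 2). The log2 fold change of 0.07 (SE 0.46, 95% interval -0.84 to 0.98) had a DESeq2 adjusted p of 0.992.

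Myom3 (chromosome 4, 135758800 to 135815571, plus strand) had 32 and 17 reads in the KO libraries against 7 and 12 in WT, or 19.5, 14.9, 9.82 and 14.9 normalized counts. KO replicate 2 and WT replicate 2 were level, and the log2 fold change of 0.47 had an SE of 1.14 (unadjusted DESeq2 p 0.677). For Mybpc1, Myom1, Myom2 and Myom3, WT replicate 1 was the lowest library. Without it the log2 fold changes of the first 3 were -0.054, -0.18 and -0.042, so the direction of these uncalled differences turned. That of Myom3 was 0.21 and kept its direction.

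**Figure D1:**
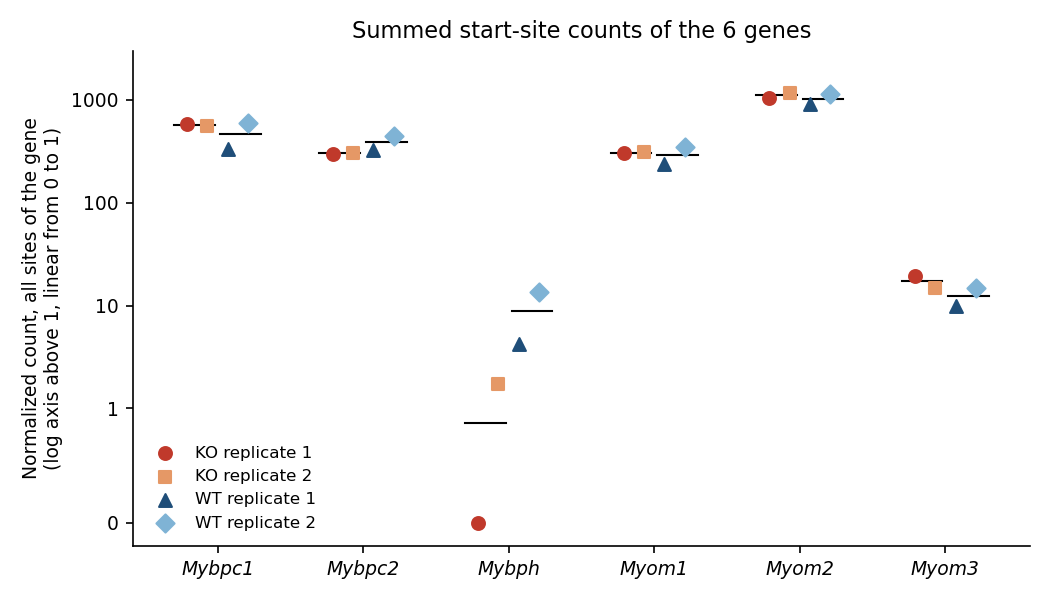
Normalized count of each gene, summed over its start sites, in the 2 KO and 2 WT libraries (points), with a black bar at the mean of each genotype; the vertical axis is logarithmic above 1. Only Mybpc2 and Mybph have both WT points above both KO points. Mybpc2 did not pass the test, and Mybph had too few reads for an adjusted p-value.

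The genes whose profile over the 4 libraries was nearest to that of each of these genes were found by the root mean square difference of centred log2(normalized count + 1), among 1397 or 1398 genes with a mean of at least 100. These were Klf9 for Mybpc1 (0.038), Zfr for Mybpc2 (0.0456), Papolg for Mybph (0.249), Mia3 for Myom1 (0.0502), Uqcrb for Myom2 (0.0139) and Ube2w for Myom3 (0.0533). With 4 libraries such a likeness describes these profiles and no more.

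The level was spread over very different numbers of sites. Mybpc1 had 47 ASSs, Myom1 27, Myom2 19, Mybpc2 16, Myom3 4 and Mybph 1. By class code, 53 of the 114 ASSs were exonic, 60 were intronic and 1 lay just beyond a gene, 1856 bases past the 3′ end of Mybpc1. Exonic here takes in code e, an exon with adjoining intron of 10 bases or more. For polyadenylation sites, the study's results grouped code e with the intronic code i. Code e was held by 15 of the 53 exonic ASSs, 5 in Mybpc1, 7 in Mybpc2 and 3 in Myom1. Exonic ASSs were broader, with a median width of 37 bases against 9.5 bases for intronic ones (28 and 7 over all genes). One intronic ASS of Myom2 (15073598 to 15073601) lay on the strand opposite to the gene.

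The main ASS of Myom2 was not at its start. It covered 546 bases (15132683 to 15133228) that ended 192 bases before the 3′ end of the gene, with 960 and 1201 reads in the KO libraries against 580 and 858 in WT. These were 55.8% and 90.1% of the reads of the gene in KO and 88.4% and 93.7% in WT, so KO replicate 1 stood apart. In normalized counts the site had 833 ± 287 in KO and 889 ± 144 in WT (SD, n = 2). The log2 fold change of -0.09 (SE 0.57) had a DESeq2 adjusted p of 1.00. The next ASS of Myom2 by level, beside the one called below, was intronic and 127 bases inside the gene (15057780 to 15057784), with 20 and 28 reads in the KO libraries against 13 and 4 in WT, and the genotypes overlapped in normalized counts. Over 426 genes with at least 1000 reads and a span of at least 20 kb, the median share of reads within 1 kb of the 3′ end was 0%, against 55.9% to 94.3% in the libraries for Myom2.

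The ASSs of Myom3 were likewise all near its 3′ end, within 821 bases, the farthest of them 1320 bases before the end. The first (135814236 to 135814251) had 10, 3, 0 and 6 reads in KO replicates 1 and 2 and WT replicates 1 and 2, and the second (135814346 to 135814373) had 7, 6, 0 and 6. The other highest ASS (135814964 to 135815027) had 7, 6, 5 and 0. Each WT library lacked reads at 2 of the 4 sites of Myom3, and 3 reads in those libraries would have been 2.31 and 1.91 ppm. Myom1 had 6.44% and 18.0% of its reads within 1 kb of the 3′ end in KO and 18.3% and 28.7% in WT, and Mybpc2 and Mybph had none there.

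The 3 highest ASSs of Mybpc2 ran from exon into intron (code e). The ASS at 44509006 to 44509193 had 121 and 113 normalized counts in KO and 159 and 225 in WT, and both WT libraries were higher (log2 fold change -0.71, SE 0.64, DESeq2 adjusted p 0.998). The ASS at 44522025 to 44522146 had 97.8 and 77.7 in KO against 71.9 and 78.5 in WT, and the one at 44513743 to 44513854 had 11.2 and 44.0 against 31.2 and 48.5. The libraries overlapped at both of these.

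The highest ASS of Mybpc1 was of code e too (88531796 to 88531884), with 87.9 and 52.6 normalized counts in KO and 67.9 and 178 in WT. WT replicate 2 was the highest and the genotypes overlapped (log2 fold change -0.81, SE 0.77, DESeq2 adjusted p 1.00). The next ASS of code e (88542403 to 88542544) had 51.8 and 45.7 in KO against 31.2 and 79.7 in WT. In contrast, the intronic ASS at 88597511 to 88597522 had 59.7 and 67.3 in KO against 27.1 and 24.3 in WT, with no overlap, though at a DESeq2 adjusted p of 0.781 (log2 fold change 1.31, SE 0.85).

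In Myom1, the highest ASS was an intronic one of 12 bases (71075932 to 71075943), with 117 and 74.2 normalized counts in KO and 65.1 and 33.5 in WT. Both KO libraries were above both WT libraries (log2 fold change 0.96, SE 0.78, DESeq2 adjusted p 0.949). The exonic ASSs at 71126344 to 71126449 and 71077786 to 71077872 had 20.3 and 50.1 in KO against 29.9 and 83.2 in WT, and 13.1 and 15.5 against 20.4 and 33.5. Only the last had both WT libraries above both KO libraries.

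**Figure D2:**
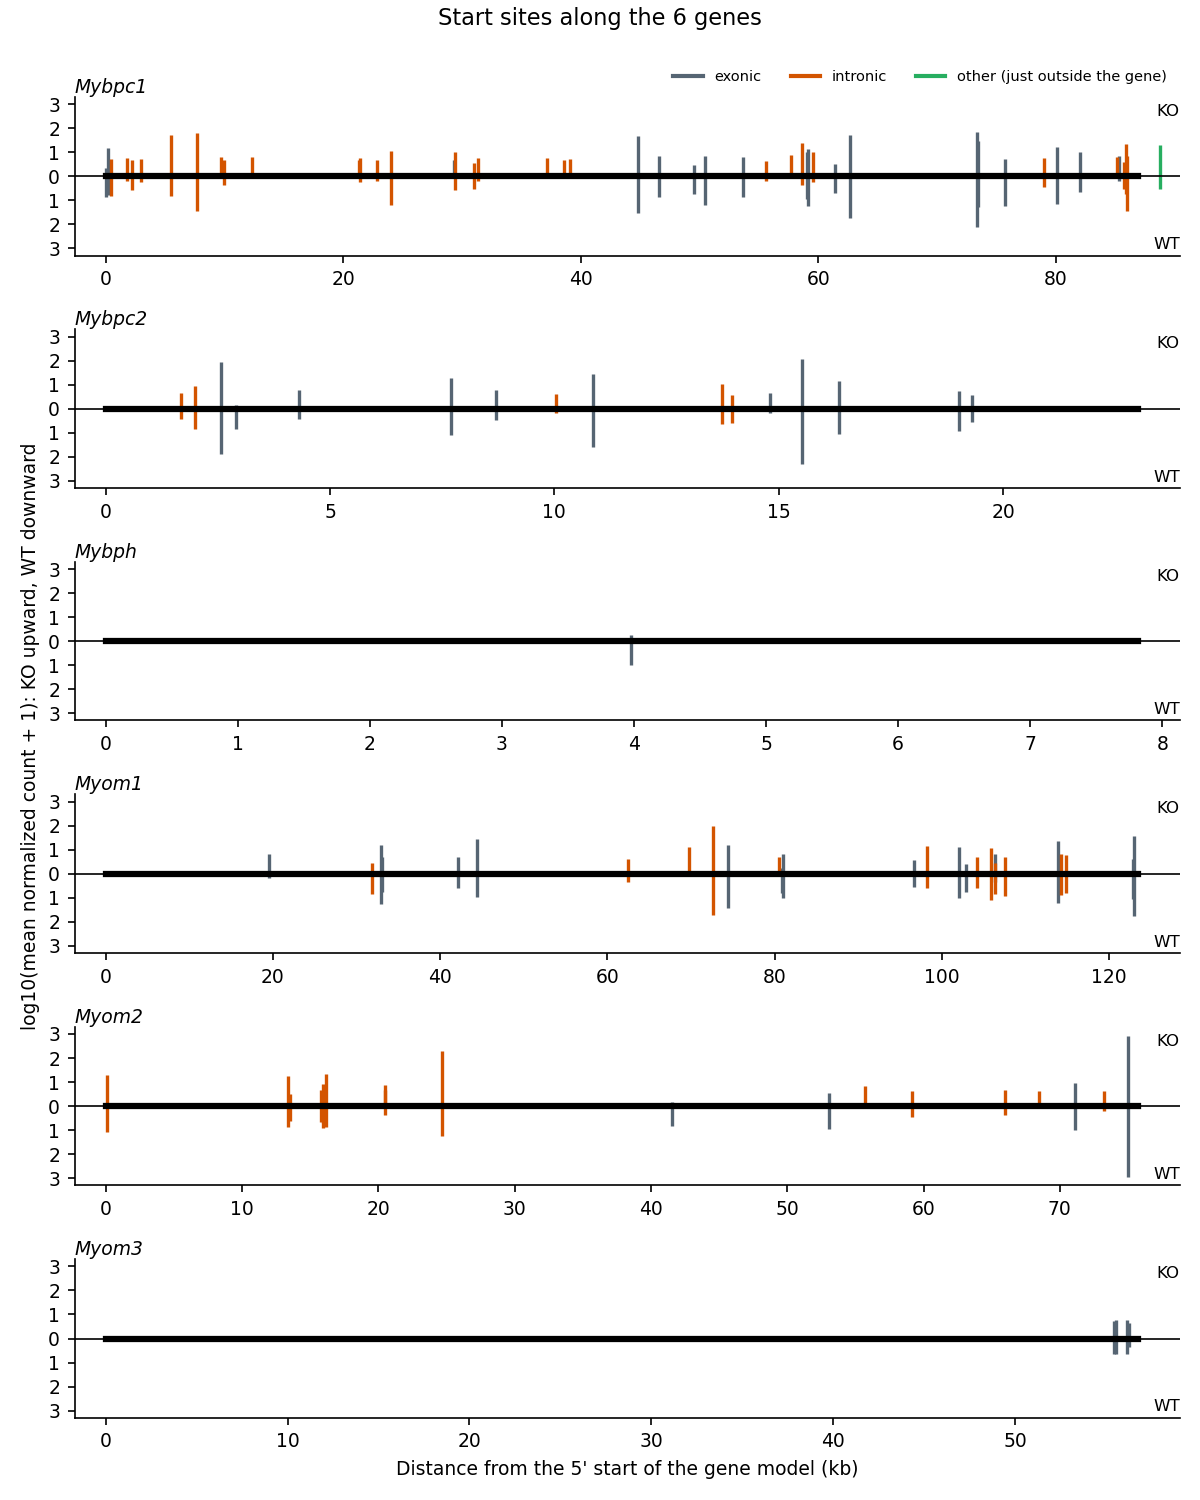
Start sites along the 6 genes, by distance in kb from the 5′ start of the gene model (horizontal), with the height of each line giving log10(mean normalized count + 1), KO upward and WT downward. Myom2 is dominated by 1 exonic site at its 3′ end, Mybpc1 and Myom1 carry many small sites, and the 4 sites of Myom3 crowd at its 3′ end.

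Sites were tested one by one. DESeq2 gave an adjusted p-value to 34 of the 114 ASSs, and 1 was called higher in KO and 0 lower, against 3.21% called of all 11112 ASSs tested (2.33% higher and 0.882% lower in KO). Of the 114, 4 had an unadjusted p under 0.05, and 3 of these were among the 34. Groups that do not overlap are common with 2 libraries each. Both KO libraries were above both WT libraries at 23.0% of all tested ASSs and below them at 17.4%. These shares were 30.3% and 11.4% for all tested intronic ASSs, and 15.3% and 23.4% for exonic ones. The filter on the mean of all libraries passed some of the 34 with a KO mean above its minimum and a WT mean below it. These were 2 exonic ASSs, 5 intronic ones and the 1 just beyond a gene. The reverse held for 2 exonic ASSs and 1 intronic one. A site could thus pass through the genotype in which it was high, and the fold changes of the tested sites are not summarised as a group.

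The called ASS (DE-ASS) was intronic, covered 61 bases of Myom2 (15082342 to 15082402) and had 572 and 18 reads in KO replicates 1 and 2 and 20 and 4 in the WT libraries. Only KO replicate 1 was high, and KO replicate 2 lay between the WT libraries once depth was taken into account (375, 15.5, 27.1 and 4.62 normalized counts). The mean was 195 ± 254 in KO and 15.9 ± 15.9 in WT (SD, n = 2). The log2 fold change of 3.63 (SE 1.13, 95% interval 1.42 to 5.85) had a DESeq2 adjusted p of 0.0604. Without KO replicate 1 the log2 fold change was -0.0040, so the size of the difference rests on 1 library. The edgeR adjusted p with all libraries was 0.325 (log2 fold change 3.59). Without KO replicate 2 the log2 fold change was larger, at 4.56, with a smaller unadjusted p of 0.00019, but the DESeq2 adjusted p was 0.150. Without WT replicate 2 it was 2.78, with a DESeq2 adjusted p of 0.451. In each of these fits 1 genotype kept a single library, which was assumed to vary like the other genotype.

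The other 3 ASSs with an unadjusted p under 0.05 were intronic, 2 in Mybpc1 and 1 in Myom1 (71073075 to 71073077, p 0.0217 with DESeq2, too few reads for an adjusted p, described below). Those of Mybpc1 are named here with their values already known. The ASS at 88599738 to 88599747 had 39 and 84 reads in the KO libraries against 1 and 9 in WT, and the one at 88546579 to 88546616 had 58 and 8 in KO against 1 and 1 in WT. Both KO libraries were above both WT libraries at each of them, but the DESeq2 adjusted p-values were 0.222 and 0.287. Of the 12 tested intronic ASSs of the 6 genes, 5 had this order and 1 had the reverse. The reverse was found in Mybpc1 (88519227 to 88519239), with 9.19 and 2.59 normalized counts in KO against 23.1 and 28.9 in WT. The unadjusted p of that ASS was 0.0987 with DESeq2 and 0.0358 with edgeR, and the adjusted p was 0.710 and 0.425.

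**Figure D3:**
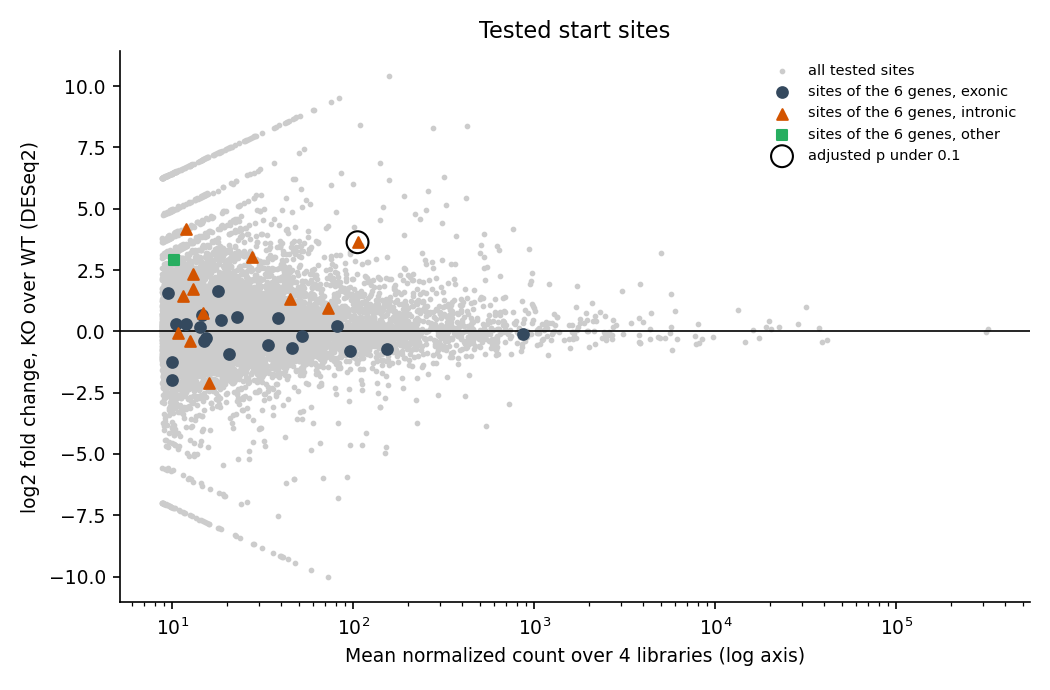
Log2 fold change, KO over WT, against the mean normalized count (log axis) of all 11112 tested start sites in grey, with the 34 tested sites of the 6 genes in colour by class. The single called site, ringed, is intronic and in Myom2.

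Intronic and exonic ASSs of these genes were described apart, over all of them and not only those tested. The 60 intronic ASSs together had 1066 and 457 normalized counts in KO and 293 and 262 in WT. The 53 exonic ASSs had 1335 and 1852 in KO against 1479 and 2099 in WT. Both KO libraries were above both WT libraries for the intronic sum, with KO replicate 1 far above the rest. The genotypes overlapped for the exonic sum. Over the whole series, 64.1% of the tested intronic ASSs were higher in KO, against 43.0% of the tested exonic ones.

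Reads in both KO libraries and in neither WT library were found at 11 ASSs, or 9.65% of the 114, against 6.55% of all ASSs, and the reverse at 0, against 1.26%. All 11 were intronic, 8 of them in Mybpc1, 2 in Myom1 and 1 in Myom2, and they were 18.3% of the 60 intronic ASSs where 8.59% of all intronic ASSs were of this kind. None had 10 or more reads in each KO library. The highest, 3 bases in Myom1 (71073075 to 71073077, singled out after its values were seen), had 30 and 5 reads in KO. A WT count of 0 allowed up to 2.31 and 1.91 ppm in the WT libraries. At least 1 read was found at 106 and 104 of the 114 ASSs in KO and at 77 and 86 in WT. At the depth of the smallest library the number expected was 102 and 95.1 in KO against 77 and 83.8 in WT. Over all 42207 ASSs both KO libraries were higher too, with 37700 and 35539 found against 31412 and 30950 in WT. At the smallest depth, 35474.5 and 33158 of all ASSs were expected in KO against 31412 and 30248.3 in WT. The minimum total of 10 reads that each listed ASS met admits sites of the deeper KO libraries more readily.

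When reads were summed by class, Mybpc1 was the gene whose intronic share did not overlap between genotypes. It was 54.1% and 43.2% in KO against 30.8% and 18.9% in WT. The exact binomial 95% intervals, which cover counting error only, ran from 50.8% to 57.4% and from 39.3% to 47.2% in KO, and reached no higher than 37.1% and 22.7% in WT. Over the 1423 genes with enough reads of both classes, the intronic share was higher in both KO libraries than in both WT libraries in 29.4% and lower in 9.77%, so 1 gene of 4 is close to the background. With code e counted with the intronic sites, a choice made after seeing the data, the share of Mybpc1 was 82.8% and 78.3% in KO against 78.9% and 75.6% in WT and the genotypes overlapped, where 27.1% of the 1423 genes were higher and 11.7% lower in KO without overlap. The share of Mybpc1 at code e sites alone, also read after seeing the data, was 28.7% and 35.1% in KO against 48.1% and 56.7% in WT. Both WT libraries were higher for this share, as in 8.92% of the 1423 genes, and the reverse held in 2.04%. In Mybpc2 and Myom1 the code e share overlapped between genotypes. The intronic sum of Mybpc1, without code e, was 327 and 230 normalized counts in KO and 99.1 and 103 in WT. Its exonic sum was 277 and 303 against 223 and 441. KO was higher for intronic reads in both libraries and overlapped WT for exonic reads.

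The intronic share of Myom2 was 43.7% in KO replicate 1 and 8.48%, 8.99% and 4.15% in KO replicate 2 and WT replicates 1 and 2, so again only KO replicate 1 stood apart. In Myom1 the share was 63.2% and 37.2% in KO against 40.8% and 33.0% in WT, and in Mybpc2 it was 12.2% and 4.86% against 6.41% and 2.25%. In each of the 4 genes KO replicate 1 had the highest share, and this library also had the highest intronic share over all nuclear genes, as given above. Replicate 1 was above replicate 2 in both genotypes, in each of the 4 genes and over all nuclear genes. The part of the library-wide share in these values was not tested.

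Gene sums of one class were tested in fits of their own, with size factors estimated from the sums of that class alone. The class sums given above used the size factors of the site fit, so these fold changes need not match them. The intronic sums and the test of balance were added after seeing the data. For intronic sums, the log2 fold change was 1.06 for Mybpc1 (SE 0.50, DESeq2 adjusted p 0.432), 1.82 for Myom2 (SE 0.66, adjusted p 0.166), 0.50 for Mybpc2 (SE 1.06, adjusted p 0.975) and 0.25 for Myom1 (SE 0.55, adjusted p 0.975). None of the 4 was called, against 2.49% of 3817 genes (1.31% higher and 1.18% lower in KO). The unadjusted DESeq2 p was 0.0329 for Mybpc1, 0.0056 for Myom2, 0.637 for Mybpc2 and 0.654 for Myom1. Of the 3817 genes, 363 had an unadjusted p under 0.05. For exonic sums, the log2 fold changes were -0.036 for Mybpc1, -0.16 for Mybpc2, -0.040 for Myom1 and 0.0029 for Myom2, each with a DESeq2 adjusted p of 1.00, and 1.67% of 3526 genes were called (1.16% higher and 0.51% lower in KO). The balance between exonic and intronic reads within a gene, tested with the F test of diffSpliceDGE of edgeR, gave adjusted p-values of 0.247 for Myom2 (unadjusted 0.0104), 0.374 for Mybpc1 (unadjusted 0.0382), 0.593 for Mybpc2 and 0.710 for Myom1. This test called 0.703% of 1423 genes and none of these 4.

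**Figure D4:**
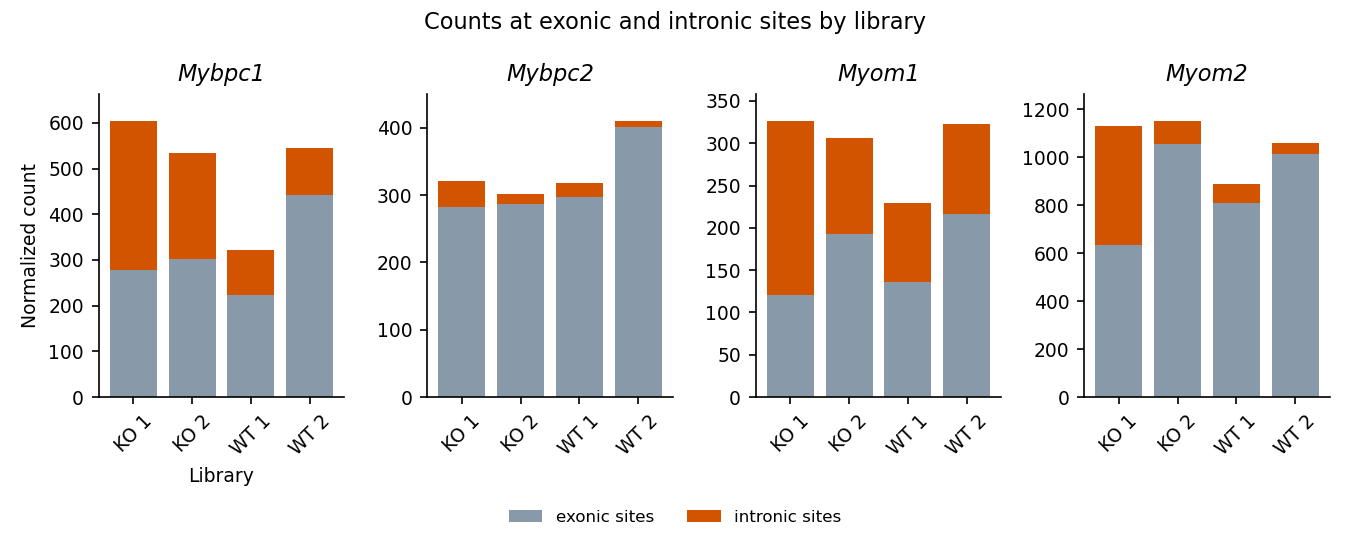
Normalized counts at exonic (grey, code e included) and intronic (orange) start sites, stacked, in each KO and WT library for the 4 genes with sites of both classes. In Mybpc1 the intronic part is larger in both KO libraries than in either WT library, and in Myom2 the large intronic part belongs to KO replicate 1 alone.

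Usage of individual ASSs within a gene was tested for the 4 genes with enough reads. With the Simes method of diffSpliceDGE (edgeR), 0 of them passed an adjusted p of 0.1, against 1.35% of 2145 genes. Myom2, with 5 ASSs tested, had an unadjusted p of 0.0349 and an adjusted p of 0.475 (edgeR). Mybpc1, with 13, had 0.044 and 0.512 (edgeR), and Mybpc2 and Myom1, with 6 and 9, had adjusted p-values of 1.00 (edgeR).

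The 6 genes were set beside the other genes of the thick filament and M-band. Of the 25 on the list, 21 were in the table and 18 were tested, of which 0 rose and 1 fell, with a median log2 fold change of 0.05 and 10 of 18 higher in KO. Over all genes tested 1.71% rose and 0.96% fell, the median was 0.01 and 50.5% were higher in KO. The one that fell was Trim63, which encodes the M-band ubiquitin ligase MuRF1 and was named after its values were seen. It had 29.3 and 38.4 normalized counts in KO and 101 and 169 in WT, so both KO libraries were lower, with a log2 fold change of -2.00 (SE 0.62) and a DESeq2 adjusted p of 0.062; the edgeR test called 0 genes of the list. Among the most abundant, Ttn, the giant spring that reaches from Z-disc to M-band, had a log2 fold change of 0.04 (SE 0.38), the fast myosin heavy chain Myh4 had -0.08 (SE 0.44), Ckm, the muscle creatine kinase bound at the M-band, had -0.14 (SE 0.42), Myh1 had -0.17 (SE 0.47), Ank1 had 0.33 (SE 0.51) and Myh2 had 0.10 (SE 0.47). None of these 6 passed the test.

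Because Mybpc1 and Mybpc2 are the slow and fast forms, fibre type lists were read in the same fit. Of 10 slow fibre genes 8 were tested and 0 were called, with a median log2 fold change of 0.53 and 7 of 8 higher in KO. Of 13 fast fibre genes all were tested and 0 were called, with a median of -0.08 and 2 of 13 higher. Over all genes tested, as above, 2.67% were called, the median was 0.01 and 50.5% were higher in KO. An unadjusted p under 0.05 was found for 0 genes of either list, and edgeR called 0 as well. Summed normalized counts of the slow list were 1231 and 1721 in KO against 565 and 1353 in WT, and those of the fast list were 36760 and 48468 against 34527 and 56657. The genotypes overlapped in both sums. WT replicate 1 was the lowest library for both lists, as it was for Mybpc1, Myom1, Myom2 and Myom3.

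**Figure D5:**
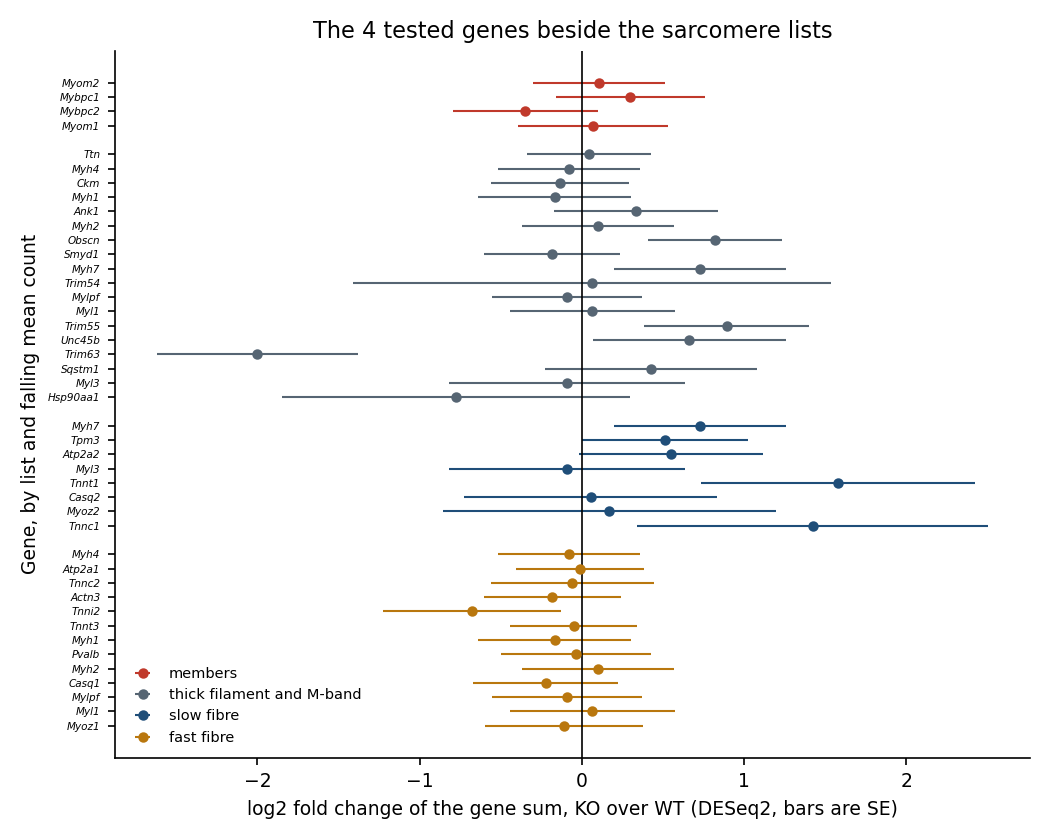
Log2 fold change of the gene sum, KO over WT, with bars of 1 SE, for the 4 tested genes (red) and for the tested genes of the thick filament and M-band, slow fibre and fast fibre lists, in order of falling mean count within each list. Only Trim63, at -2.00, passed the test.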

How the data were processed

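The deposited table held raw read counts per clustered start site for 4 libraries, 2 KO and 2 WT, and 1 line of totals, which was left out. From reads on the mouse genome (GRCm38.p5, per the submitters' processing notes) the authors clustered read ends into sites and gave each a gene and a Cuffcompare class code. Aligner and clustering settings for these libraries are not given in the sources used here. The codes c, e, o and = were read as exonic and i as intronic. For polyadenylation sites, the study's results instead grouped e, which runs from exon into intron, with i. Strand is given for each site. Sites listed had at least 10 reads in total, no molecular identifiers were described, and floors and intervals of counts cover counting error only.

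Counts were compared with DESeq2 1.42.0 (R 4.3.3; Wald test, median-of-ratios size factors, independent filtering, adjusted p under 0.1), the study's method, over all sites and over sums per gene symbol. Filtering kept means above 8.76 at sites and 16.5 at genes. The quasi-likelihood test of edgeR 4.0.16 was the alternative, and its diffSpliceDGE tested usage. Intervals are 95% Wald intervals. Class sums are shown with the size factors of the site fit. Sites named were those called, the 3 highest per gene and those within 100 bases of an annotated start. Genes most alike needed a mean of at least 100, and the lists are given by counts with the 6 highest genes. Positions and promoters came from RefSeq tables (GRCm38.p6), whose primary chromosomes share coordinates with the earlier patch. All 6 genes matched the gene table and 5 the promoter table, which has no entry for Myom2. The code was tested on simulated data. The members, lists and tests were chosen with earlier results of these data known. An exact permutation test of 2 against 2 libraries cannot go below p = 0.333 and was not used. The sources describe the 4 RNA samples as from separate mice. Library totals are given in the report, and levels were not compared between genes per length because transcript lengths were not used here.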

Additional observations from a re-analysis of the deposited data

How the results depend on the processing

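No gene of the 6 was called and none changed its use of sites under any alternative run, with DESeq2 or edgeR. The single called site of Myom2 was also called with TMM factors. With edgeR, with independent filtering off, with a minimum of 40 reads or at a threshold of 0.05, 0 sites of the 6 genes were called. As with DESeq2, 4 sites had an unadjusted p under 0.05 with edgeR, but they were not all the same sites. Both tests had the called Myom2 site and the Mybpc1 site at 88599738 to 88599747. The other sites with edgeR were also in Mybpc1. The intronic one at 88519227 to 88519239 was lower in KO (edgeR p 0.0358). The one just beyond the gene was higher in KO (edgeR p 0.0266). Leaving out 1 library is described by effect size only. The log2 fold change of the called Myom2 site ran from -0.0040 (without KO replicate 1) to 5.40 (without WT replicate 1). Its adjusted p was 0.325 with edgeR, 0.229 with filtering off and 0.160 with a minimum of 40 reads, at log2 fold changes of 3.59, 3.63 and 3.50; with filtering off only the adjustment changed.

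Directions turned for Mybpc1 (-0.054 without WT replicate 1, -0.036 with exonic sites only), Myom1 (-0.18 and -0.040) and Myom2 (-0.042 without WT replicate 1), and for Mybpc2 with intronic sites only (0.50), an alternative chosen after seeing the data. Leaving out 1 library gave log2 fold changes of -0.054 to 0.74 for Mybpc1, -0.55 to -0.15 for Mybpc2, -0.18 to 0.34 for Myom1, -0.042 to 0.24 for Myom2 and 0.21 to 0.78 for Myom3. The cause was not tested.

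Over all sites, 357 were called with DESeq2, 80 with edgeR and 175 with filtering off, and over all genes 125 and 54 with DESeq2 and edgeR; over all genes 29 changed site usage by the Simes method and 71 by the F test. Between same-numbered libraries the correlation of deviations was 0.0729 over 9857 single sites, and the numbers were not taken as pairs in the main fits. The intronic share over nuclear genes was, however, higher in replicate 1 (30.6% in KO, 27.5% in WT) than in replicate 2 (24.5% and 21.2%). With the replicate number as a block, DESeq2 called 195 sites, 1 of them in these genes (the Myom2 site, adjusted p 0.0771), and edgeR with the replicate block, added after seeing the data, called 1 site in all and 0 in these genes. With sites of at least 40 reads the exonic share of Mybpc2 became 100% in both genotypes. The edgeR test lost the Trim63 call. Levels per coding length were not run, since no transcript lengths were given. With DESeq2 and all libraries, Mybph, Myom3 and 80 of the 114 sites fell under the filter and had no adjusted p; edgeR gave one to Myom3 (0.917) and to 4 of those sites.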
